A study of Mus musculus with 12 samples.

Results

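The respiratory chain genes of the mouse left ventricle are described here by complex and by genome of origin. They are the protein-coding genes whose symbols carry the prefixes of the structural subunits of complexes I to IV and of ATP synthase, which is complex V: mt-Nd, mt-Co, mt-Cytb, mt-Atp, Nduf with a subunit letter, Sdh, Uqcr, Cox4 to Cox8 and Atp5. The rule took 98 genes, with 97 different symbols, of the 78334 genes in the count table, and 94 of the 98 had enough counts to be tested among 16981 tested genes. By symbol alone, complex I had 44 members, complex II 4, complex III 9, complex IV 21 and complex V 20. The mitochondrial genome encodes 13 of them, with 7 in complex I, 1 in complex III, 3 in complex IV and 2 in complex V, and all 13 were tested. The nuclear genome encodes the other 85, of which 81 were tested.

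The respiratory chain passes electrons from NADH and succinate to oxygen and pumps protons across the inner mitochondrial membrane, and ATP synthase uses the proton gradient to make ATP. All complexes but complex II join subunits from the mitochondrial and the nuclear genome. Heart muscle works almost continuously and is among the tissues with the most mitochondria, so these transcripts are among its most abundant.

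The libraries were made from poly(A) RNA of the left ventricle, 1 for each of 12 animals, and the 3 groups held 4 animals each. Where 3 levels follow each other without names, they stand for Sham vehicle first, UNX/DOCA vehicle second and UNX/DOCA ITF2357 last, each over 4 animals. Where 3 fold changes, medians or counts of genes do, the first sets UNX/DOCA vehicle against Sham vehicle, the second sets the drug against UNX/DOCA vehicle and the third sets it against Sham vehicle. Sham vehicle mice had a sham operation and ate control chow. UNX/DOCA vehicle mice had the operation that the labels abbreviate UNX/DOCA, known as removal of a kidney with deoxycorticosterone acetate, a mineralocorticoid. It was done to cause diastolic dysfunction, and these mice ate control chow. In the UNX/DOCA ITF2357 group the operation and the mineralocorticoid were the same, and the chow held ITF2357 (givinostat), an inhibitor of histone deacetylases, for 4 weeks from 4 weeks after surgery. No Sham group received ITF2357, and the sources used here give neither strain, age nor genotype. The UNX/DOCA vehicle group enters 2 of the 3 comparisons, as does each of the other groups, so the comparisons are not independent of each other.

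Libraries held 23.4 to 34.9 M counts. Levels are given as CPM, which are counts scaled to a common library total, after scaling by the trimmed mean of M values (TMM), and 1 CPM stood for about 28 reads. Of 6 cardiomyocyte markers (Myh6, Tnnt2, Tnni3, Actc1, Mb, Ryr2) 0 were below 1 CPM, and their summed level ran from 49717 to 60349 CPM in Sham vehicle, from 46910.4 to 54185 CPM for UNX/DOCA vehicle and from 49056 to 53566 CPM with UNX/DOCA ITF2357. UNX/DOCA vehicle replicates 3 and 4 stood apart by their neutrophil markers (S100a8, S100a9, Csf3r, Cxcr2, Retnlg), which summed to 470 and 151 CPM against 3.78 to 41.9 CPM in the other 10 libraries. In edgeR the counts of called respiratory chain genes below were 0 with and without those 2 libraries in all 3 comparisons.

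Several mitochondrial genes have near-identical copies in the nuclear genome, and the sequences show where a read can be told apart and where it cannot. The first pair below is a 150-base stretch, the length of 1 read, of mt-Co2 (subunit 2 of cytochrome c oxidase; chrM:7280-7429, plus strand) and the same stretch of Gm28661, an annotated unprocessed pseudogene (chr1:24615149-24615298, minus strand). The second pair is the middle of mt-Cytb (cytochrome b; chrM:14642-14791, plus strand) and its closest annotated copy, Gm11410 (chr4:80004486-80004635, plus strand). Sequences are from the GENCODE M21 transcripts on GRCm38.p6, read 5′ to 3′, and capitals mark the bases that differ within a pair.
mt-Co2: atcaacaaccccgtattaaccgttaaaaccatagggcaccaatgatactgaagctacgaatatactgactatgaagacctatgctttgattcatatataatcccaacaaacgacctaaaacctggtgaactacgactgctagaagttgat
Gm28661: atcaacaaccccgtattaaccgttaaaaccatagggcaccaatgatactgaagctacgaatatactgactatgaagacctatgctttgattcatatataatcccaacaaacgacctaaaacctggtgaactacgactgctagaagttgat
mt-Cytb: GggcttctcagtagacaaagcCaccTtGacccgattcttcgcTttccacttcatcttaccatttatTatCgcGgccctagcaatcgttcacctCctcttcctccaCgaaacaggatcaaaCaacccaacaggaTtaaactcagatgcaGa
Gm11410: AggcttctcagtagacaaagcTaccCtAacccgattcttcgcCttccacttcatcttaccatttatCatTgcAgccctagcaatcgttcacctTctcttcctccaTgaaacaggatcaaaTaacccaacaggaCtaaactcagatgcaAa
The mt-Co2 stretch differed from Gm28661 at 0 of 150 bases, and the mt-Cytb stretch differed from Gm11410 at 13 of 150.

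The shared sequence went with low levels in the deposited counts. For each mitochondrial gene the share of 150-base windows of its transcript that occur unchanged in another annotated gene was 99.8% for mt-Co3, 99.4% for mt-Co2 and for mt-Atp6, 98% for mt-Nd4l, 97% for mt-Nd3, 59.2% for mt-Nd4 and 23.6% for mt-Co1. It was 0 for the other 6 genes. The 5 genes with at least 90% shared windows had 532 to 1843 CPM per kb of transcript (median 1203). The other 8 had 699.9 to 64601 CPM per kb (median 16873), and the lowest of these, mt-Atp8 at 699.9 CPM per kb, overlaps mt-Atp6. For 4 of the 5 genes the nuclear copy held 45.9% to 62.5% of the counts of the pair. Gm28661 had 30101 counts per library on average and mt-Co2 had 35497. Gm28437 had 38586 and mt-Co3 had 37031. Gm10925 had 38469 and mt-Atp6 had 23069. Gm10222 had 3992 and mt-Nd4l had 4507. Gm28438, the copy of mt-Nd3, had 0 counts in every library. The share of the mt-Co2 and Gm28661 counts that stood at Gm28661 was 46.2% in Sham vehicle, 45.6% for UNX/DOCA vehicle and 45.8% with UNX/DOCA ITF2357, and over the 12 libraries it ran from 43.9% to 48.1%. The handling of reads that fit several places is not given in the sources used here. The levels of these 5 genes are therefore uncertain, and its part in the low levels was not tested.

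**Figure D1:**
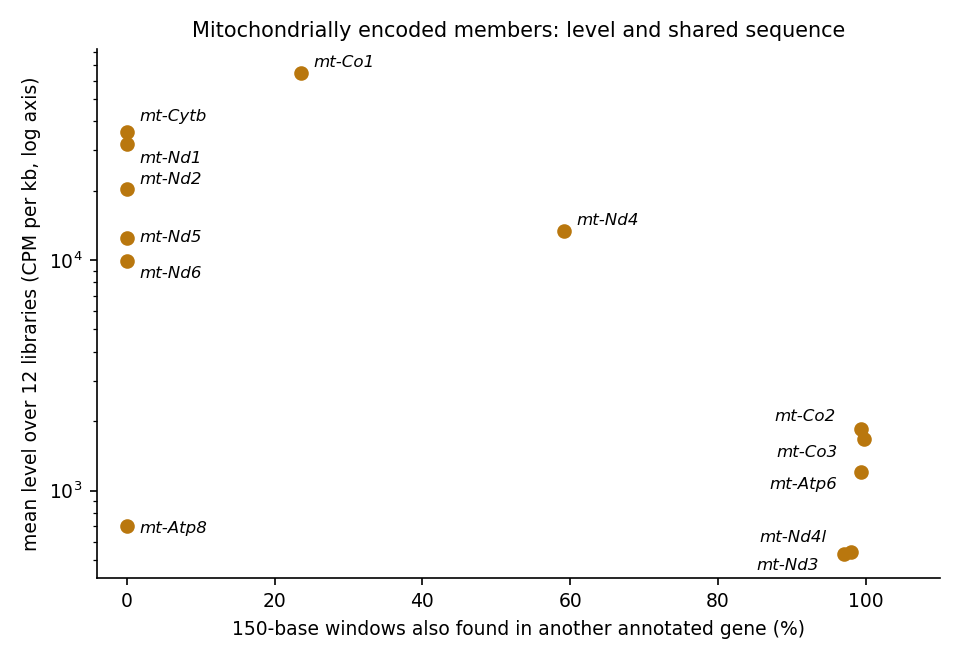
Mean level of the 13 mitochondrially encoded members over 12 libraries (CPM per kb, log axis) against the share of 150-base windows also found in another annotated gene. The 5 genes at the right, with at least 90% shared windows, lie between 532 and 1843 CPM per kb.

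Promoters of the nuclear members are shown for Sdha, Uqcrc1, Cox6a1 and Ndufa11, 4 genes with small p-values in the comparisons below, because all 4 windows hold the binding letters of NRF1, a transcription factor known for nuclear respiratory genes. Each window runs from 250 bases before to 50 bases after the RefSeq start on GRCm38.p6, 5′ to 3′ along the gene, and capitals mark the NRF1 letters, with any base allowed at 1 position, on either strand. The windows are chr13:74350191-74350490 (minus strand) for Sdha, chr9:108936398-108936697 (plus strand) for Uqcrc1, chr5:115348909-115349208 (minus strand) for Cox6a1 and chr17:56717512-56717811 (plus strand) for Ndufa11.
Sdha: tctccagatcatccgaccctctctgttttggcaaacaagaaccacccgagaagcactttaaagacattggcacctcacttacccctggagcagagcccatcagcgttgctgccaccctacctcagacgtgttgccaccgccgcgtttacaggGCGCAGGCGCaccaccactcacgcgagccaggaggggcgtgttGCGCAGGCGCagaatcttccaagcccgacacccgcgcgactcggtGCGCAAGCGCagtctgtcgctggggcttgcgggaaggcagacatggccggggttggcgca
Uqcrc1: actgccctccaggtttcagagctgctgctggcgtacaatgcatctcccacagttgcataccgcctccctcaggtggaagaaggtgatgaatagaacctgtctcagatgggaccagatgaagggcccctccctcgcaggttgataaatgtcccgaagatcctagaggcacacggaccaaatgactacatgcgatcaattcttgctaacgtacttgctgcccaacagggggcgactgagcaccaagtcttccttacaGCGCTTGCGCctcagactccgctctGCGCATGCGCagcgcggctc
Cox6a1: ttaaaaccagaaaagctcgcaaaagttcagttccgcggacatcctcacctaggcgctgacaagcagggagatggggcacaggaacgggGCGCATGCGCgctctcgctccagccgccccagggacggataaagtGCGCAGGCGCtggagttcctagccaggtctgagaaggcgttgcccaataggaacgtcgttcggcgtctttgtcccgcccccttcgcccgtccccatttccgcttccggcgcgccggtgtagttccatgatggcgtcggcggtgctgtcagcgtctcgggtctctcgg
Ndufa11: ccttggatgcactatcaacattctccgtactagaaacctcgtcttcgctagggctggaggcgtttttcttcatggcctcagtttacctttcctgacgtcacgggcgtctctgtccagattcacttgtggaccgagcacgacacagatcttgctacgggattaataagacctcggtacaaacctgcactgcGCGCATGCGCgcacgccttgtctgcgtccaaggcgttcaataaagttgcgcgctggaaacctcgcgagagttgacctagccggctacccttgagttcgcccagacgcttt
The letters occurred 3 times in the Sdha window, 2 times in the Uqcrc1 and Cox6a1 windows and 1 time in the Ndufa11 window.

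Promoter windows were found for 67 nuclear members. The NRF1 letters stood in 17 of the 67 (25.4%) and in 7.17% of the windows of 17492 protein-coding genes. CCGGAAG, the core of sites for ETS factors such as GABPA, stood in 16 of 67 (23.9%) against 12.9% of all genes. The YY1 letters stood in 4 of 67 (5.97%) against 1.06%, and all 4 genes (Ndufa9, Ndufs4, Ndufs6, Ndufs7) belong to complex I. TCAAGGTCA, the site of oestrogen-related receptors, stood in 2 of 67 (2.99%), Atp5g3 and Sdhd, against 0.377%. Each motif was searched on both strands, the last letters of CCGGAAG can also be the first letters of the YY1 motif, and a match describes letters only. The 17 tested members with the NRF1 letters had median log2 fold changes of -0.05 for UNX/DOCA vehicle against Sham vehicle, -0.03 for UNX/DOCA ITF2357 against UNX/DOCA vehicle and -0.04 for UNX/DOCA ITF2357 against Sham vehicle. The 48 tested members without them had -0.03, 0.01 and -0.02.

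None of the 94 tested respiratory chain genes passed the test in any comparison. The count was 0 of 94 at an adjusted p under 0.05 (edgeR quasi-likelihood test, Benjamini-Hochberg over all 16981 genes) for UNX/DOCA vehicle against Sham vehicle, where 0% of all tested genes passed. It was 0 of 94 for UNX/DOCA ITF2357 against UNX/DOCA vehicle, where 0.901% of all genes passed, and 0 of 94 for UNX/DOCA ITF2357 against Sham vehicle, where 1.75% passed. At an unadjusted p under 0.05 the members numbered 2, 5 and 20 in the same order (2.13%, 5.32% and 21.3% of 94), beside 15.9%, 18.5% and 20.1% of all genes. Of the 20, 4 were higher and 16 lower with the drug, beside 10.7% and 9.39% of all genes. Both members of the first comparison were lower, beside 6.47% of all genes, and of the 5 in the second 4 were lower and 1 higher, beside 9.8% and 8.7%. DESeq2 called 0, 1 and 10 members, and limma-voom with sample weights called 0, 0 and 8. All of these calls were lower with the drug, and DESeq2 called 3.49%, 5.45% and 6.88% of all genes and limma-voom 3.07%, 1.48% and 8.87%. Lower calls alone made up 3.1% of all genes for DESeq2 in the second comparison, and 3.4% for DESeq2 and 4.25% for limma-voom in the third.

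The 95% interval of the fold change lay within 1.5-fold for all 94 tested members in each comparison, beside 52.5%, 51.6% and 51.3% of all tested genes. It lay within 1.25-fold for 88 of 94 members in UNX/DOCA vehicle against Sham vehicle, for 82 of 94 in UNX/DOCA ITF2357 against UNX/DOCA vehicle and for 76 of 94 in UNX/DOCA ITF2357 against Sham vehicle. The fitted log2 fold changes of the members ran from -0.19 to 0.13, from -0.23 to 0.24 and from -0.26 to 0.31.

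**Figure D2:**
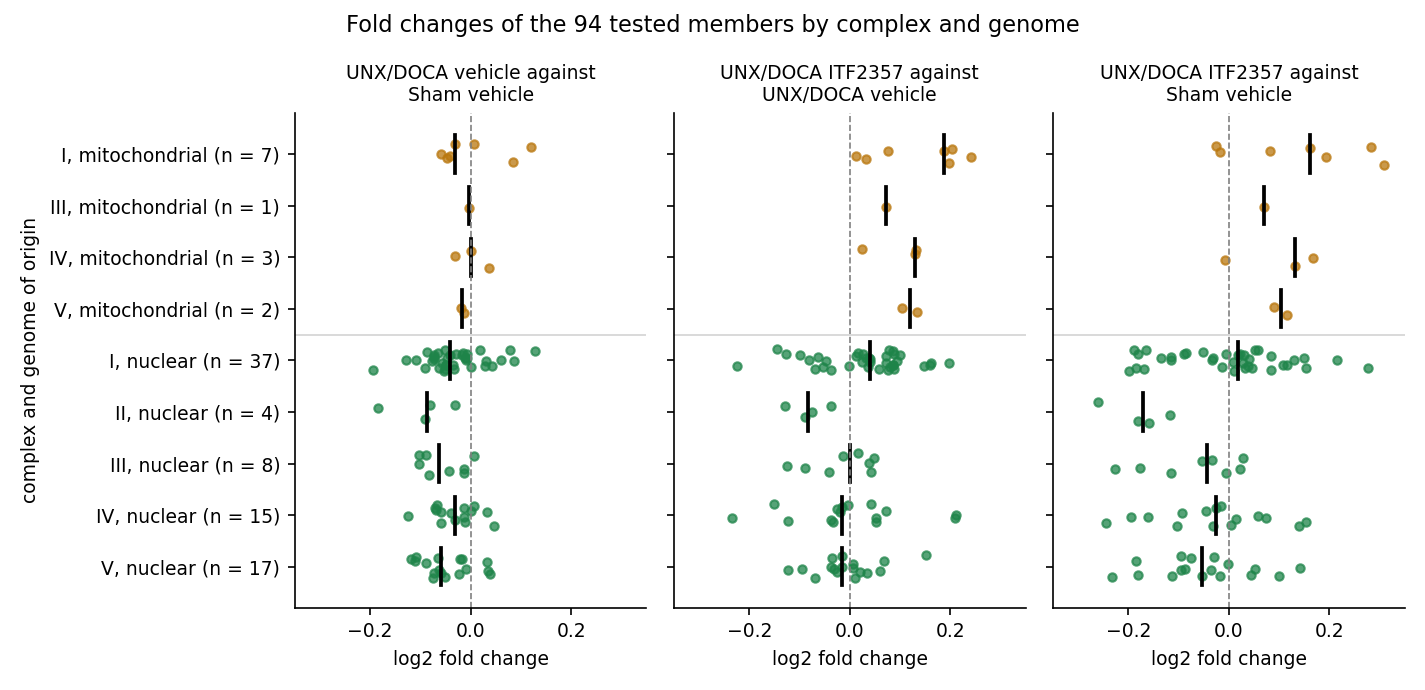
Fitted log2 fold change of each of the 94 tested members (points, spread vertically for legibility) by complex and genome of origin, with the median of each row as a black bar. In the middle panel all 13 mitochondrially encoded members lie above 0, and complex II lies below 0 in all 3 panels.

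The mitochondrially encoded members took about 24% of all counts. The share was 24.004% ± 0.778 in Sham vehicle, 23.9% ± 1.23 for UNX/DOCA vehicle and 24.7% ± 1.25 with UNX/DOCA ITF2357 (SD, n = 4). Their summed level was 225782, 231350.0, 263575 and 247868 CPM in the 4 Sham vehicle animals, 237875, 262041, 217562 and 234877 CPM in UNX/DOCA vehicle, and 252431, 240402, 225958 and 273149 CPM in UNX/DOCA ITF2357. The 3 groups overlapped. mt-Co1, the catalytic subunit of cytochrome c oxidase, alone held 41.6% ± 1.33 of the mitochondrial member counts in Sham vehicle, 41.4% ± 0.541 for UNX/DOCA vehicle and 40.4% ± 0.700 with UNX/DOCA ITF2357 (SD, n = 4).

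In UNX/DOCA ITF2357 against UNX/DOCA vehicle all 13 mitochondrial members had a log2 fold change above 0, with a median of 0.13 and a range from 0.01 for mt-Nd2 to 0.24 for mt-Nd4l, beside 49.8% of all tested genes above 0 and a median over all genes of 0.00. The 13 came to 12 with scaling by library totals and stayed 13 with the other 3 scalings tried. Over all 23 alternative fits the sign of mt-Nd2 turned in 6, and those of mt-Nd1 and mt-Co1 in 4 each. The sign turned in 1 fit for mt-Cytb and in 1 for mt-Nd4, and the other mitochondrial members kept theirs. Transcripts of this genome are processed from long shared precursors, so the 13 genes are not 13 separate observations. Against Sham vehicle 10 of 13 were above 0 in UNX/DOCA ITF2357 (median 0.12), and 5 of 13 were above 0 in UNX/DOCA vehicle (median -0.01), beside 52.3% and 51.1% of all genes. Under the other scalings these counts ran from 10 to 13 and from 4 to 8. The smallest adjusted p-values among the 13 were 0.627, 0.302 and 0.149 (edgeR), for UNX/DOCA vehicle against Sham vehicle, UNX/DOCA ITF2357 against UNX/DOCA vehicle and UNX/DOCA ITF2357 against Sham vehicle.

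Among the complex I subunits of the mitochondrial genome, which form its membrane arm, mt-Nd6 had the largest fold change with UNX/DOCA ITF2357 against Sham vehicle. It measured 4410.1, 3895, 5519.7 and 4702 CPM in Sham vehicle, 4964, 5382, 5012 and 4790.1 CPM for UNX/DOCA vehicle, and 5748, 5808, 4706 and 6670.4 CPM with UNX/DOCA ITF2357. The groups overlapped through Sham vehicle replicate 3 and UNX/DOCA ITF2357 replicate 3. The log2 fold change of UNX/DOCA ITF2357 against Sham vehicle was 0.31 ± 0.11 (SE), with an adjusted p of 0.149 (edgeR). mt-Nd6 lies on the strand opposite to the other 12 genes and overlaps mt-Nd5, and the strand setting of the counting is not given in the sources used here. mt-Nd3 measured 156, 151, 185 and 185 CPM in Sham vehicle, 178, 180.3, 174 and 186 CPM for UNX/DOCA vehicle, and 215, 179.6, 182 and 248 CPM with UNX/DOCA ITF2357. Its log2 fold change against Sham vehicle was 0.28 ± 0.10 with ITF2357, with an adjusted p of 0.161 (edgeR). mt-Nd4l, which overlaps mt-Nd4 on the same strand, measured 154 ± 13.8 CPM in Sham vehicle, 149 ± 22.99 CPM for UNX/DOCA vehicle and 177 ± 23.99 CPM with UNX/DOCA ITF2357 (SD, n = 4). Both mt-Nd3 and mt-Nd4l are among the genes with near-identical copies.

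The other 4 mitochondrial complex I genes were more abundant. mt-Nd1 measured 31077 ± 1955, 29834 ± 1784 and 30509.7 ± 3947 CPM (SD, n = 4 in each). mt-Nd2 measured 21428 ± 1515, 20973 ± 863 and 21162 ± 2623 CPM. mt-Nd4 measured 17992 ± 1703, 18080.3 ± 1898 and 19049.8 ± 1433 CPM. mt-Nd5 measured 22014 ± 3219, 21402 ± 3049 and 24630.1 ± 2821 CPM. The intervals of mt-Nd1 and mt-Nd2 in UNX/DOCA ITF2357 against UNX/DOCA vehicle ran from -10.0% to 16.2% and from -10.9% to 14.3%.

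In the other complexes mt-Cytb, the only mitochondrial subunit of complex III, measured 37512, 38600.4, 46103 and 39997 CPM in Sham vehicle, 39596, 46239, 36893 and 39181 CPM for UNX/DOCA vehicle, and 43685, 41269.9, 39965 and 45308 CPM with UNX/DOCA ITF2357. The groups overlapped. mt-Co1 was the most abundant member, at 100707 ± 6881, 98518 ± 7300.4 and 100199 ± 6567 CPM (SD, n = 4), and its interval of UNX/DOCA vehicle against Sham vehicle ran from -12.1% to 8.83%. mt-Co2 measured 1201 ± 64.8, 1232 ± 109.9 and 1348 ± 161 CPM and mt-Co3 1275 ± 66.6, 1276 ± 100.3 and 1397 ± 169 CPM. In complex V mt-Atp6 measured 800.3 ± 30.4, 790.1 ± 79.4 and 867 ± 111 CPM and mt-Atp8 140.2 ± 8.93, 139 ± 18.8 and 149 ± 13.9 CPM. For these 4 genes UNX/DOCA ITF2357 replicates 1 and 4 held the highest level of the drug group.

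The nuclear members together took 3.44% ± 0.0770 of counts in Sham vehicle, 3.32% ± 0.0382 for UNX/DOCA vehicle and 3.21% ± 0.130 with UNX/DOCA ITF2357 (SD, n = 4). Their summed level was 33935, 34144, 36878 and 33656 CPM in Sham vehicle, 32075, 34793, 32406 and 32753 CPM for UNX/DOCA vehicle, and 32043, 30608, 30812 and 35636 CPM with UNX/DOCA ITF2357. Sham vehicle replicate 3 and UNX/DOCA ITF2357 replicate 4 were the highest of their groups for the nuclear and for the mitochondrial sum, and they had the lowest TMM factors of the 12 libraries (0.940 and 0.949). Relative to Sham vehicle the mean sum was 0.952 for UNX/DOCA vehicle and 0.931 with ITF2357, and UNX/DOCA ITF2357 stood at 0.978 of UNX/DOCA vehicle. The groups overlapped. The ratio of the mitochondrial to the nuclear sum was 6.99 ± 0.329, 7.21 ± 0.362 and 7.68 ± 0.252, and the lowest drug animal (7.33) lay below the highest Sham vehicle animal (7.36).

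**Figure D3:**
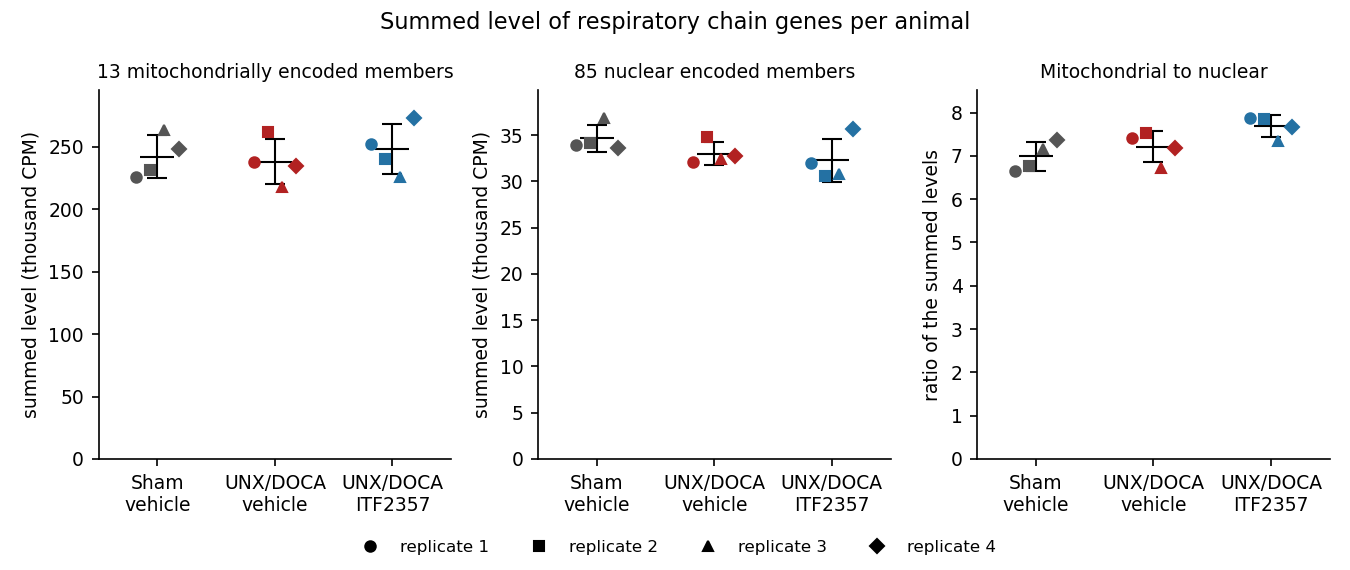
Summed TMM-scaled level of the 13 mitochondrially encoded and the 85 nuclear encoded members per animal, in units of 1000 CPM, and the ratio of the sums; bars are mean and SD over 4 animals and marker shapes are replicate numbers. The nuclear sum runs from 30608 to 36878 CPM and its groups overlap.

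Over the 81 tested nuclear members 65 had a log2 fold change below 0 in UNX/DOCA vehicle against Sham vehicle (median -0.05), beside 48.9% of all tested genes (median 0.01). In UNX/DOCA ITF2357 against UNX/DOCA vehicle 37 of 81 were below 0 (median 0.01), and against Sham vehicle 48 of 81 were (median -0.03), beside 50.2% and 47.7% of all genes. Under the other 4 scalings the 65 ran from 50 to 66, the 37 from 27 to 41 and the 48 from 38 to 50. The median turned sign with library totals in the second comparison (-0.0041) and with upper-quartile scaling in the third (0.0027). In this bulk tissue fewer cardiomyocytes and less of these transcripts per cardiomyocyte cannot be told apart. The cardiomyocyte marker sum was 54928 ± 4391 CPM in Sham vehicle, 50196 ± 3002 CPM for UNX/DOCA vehicle and 51089.6 ± 2304 CPM with UNX/DOCA ITF2357 (SD, n = 4), and its part in these values was not tested.

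Complex I, the NADH dehydrogenase, has 37 nuclear members by the rule, and all were tested. The symbol alone placed them here, Ndufa4 among them, and the complex that each protein belongs to was not checked. Their summed level was 8987 ± 414 CPM in Sham vehicle, 8645 ± 341 CPM for UNX/DOCA vehicle and 8649 ± 616 CPM with UNX/DOCA ITF2357 (SD, n = 4). The smallest p in UNX/DOCA vehicle against Sham vehicle was that of Ndufs1, which carries iron-sulphur clusters at the NADH end of the electron path. Ndufs1 measured 608, 583, 639.9 and 580.5 CPM in Sham vehicle, 532, 586, 450.2 and 539.6 CPM for UNX/DOCA vehicle, and 559, 496, 501 and 589 CPM with UNX/DOCA ITF2357. UNX/DOCA vehicle replicate 2 overlapped Sham vehicle and replicate 3 was lowest. The log2 fold change was -0.19 ± 0.08 (SE), with an adjusted p of 0.292 (edgeR), and its exons overlap genes on the other strand.

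Nuclear members of the catalytic core, which bind the flavin and most iron-sulphur clusters, had lower median log2 fold changes than the accessory subunits around them. In UNX/DOCA vehicle against Sham vehicle all 7 core genes were below 0, with a median of -0.09. Of the 30 accessory genes 21 were below 0, with a median of -0.02. The medians were -0.05 and 0.07 in UNX/DOCA ITF2357 against UNX/DOCA vehicle and -0.17 and 0.03 in UNX/DOCA ITF2357 against Sham vehicle. In these comparisons 2 and 1 of the 7 core genes were above 0, and 24 and 20 of the 30 accessory genes were. The 7 mitochondrial genes of complex I were left out of this division and had medians of -0.03, 0.19 and 0.16. The division was made after the values were seen and carries no test, and the part of transcript level in it was not tested. In UNX/DOCA ITF2357 against Sham vehicle 9 members showed no overlap, with Ndufb2 higher and 8 lower, among them Atp5a1, Sdha and Uqcrc1, beside 13.7% of all tested genes, 7.27% higher and 6.39% lower. Ndufs7, which carries the last iron-sulphur cluster before the quinone, measured 272 to 295 CPM in Sham vehicle and 259 to 268 CPM in UNX/DOCA vehicle, with an adjusted p of 0.391 (edgeR). Ndufs7 and Sdha were the 2 members without overlap in that comparison, both lower, beside 9.39% of all genes in either direction and 4.36% lower.

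Among the accessory subunits Ndufa11, which sits at the junction of the membrane arm, had the smallest p of all members in UNX/DOCA ITF2357 against UNX/DOCA vehicle and was chosen after its values were seen. It measured 76.6, 72.7, 81.1 and 78.2 CPM in Sham vehicle, 79.0, 84.2, 83.8 and 81.0 CPM for UNX/DOCA vehicle, and 63.8, 69.3, 72.6 and 75.3 CPM with UNX/DOCA ITF2357. All drug animals lay below all UNX/DOCA vehicle animals. This held for 3 members (Ndufa11, Ndufa10 and Cox6a1), beside 9.31% of all tested genes without overlap in either direction and 4.36% lower. For Ndufa11 the log2 fold change was -0.22 ± 0.07 (SE), with an adjusted p of 0.111 in edgeR and 0.0199 in DESeq2, and the interval ran from -22.4% to -5.49%. Ndufa10 measured 522 ± 24.4 CPM in UNX/DOCA vehicle and 472 ± 20.97 CPM with UNX/DOCA ITF2357 (SD, n = 4). Ndufb7 stood on the other side, at 217 ± 10.7 CPM and 242 ± 19.02 CPM, with an adjusted p of 0.237 (edgeR). Ndufb2 and Ndufb8 were low, at 1.02 and 15.8 CPM per kb against a median of 209 CPM per kb for the 37 genes, and both overlap exons of other genes on the same strand.

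Complex II, the succinate dehydrogenase, is also an enzyme of the tricarboxylic acid cycle and has no mitochondrially encoded subunit. All 4 genes had a log2 fold change below 0 in all 3 comparisons, with medians of -0.09, -0.08 and -0.17, and 0 of 4 passed the test in each (edgeR). The 4 scaling alternatives kept all of these signs, and Sdhb for UNX/DOCA vehicle against Sham vehicle was above 0 in limma-voom, and also when UNX/DOCA vehicle replicate 3 was left out, alone or together with replicate 4. An unadjusted p under 0.05 (edgeR) was found for 1, 0 and 3 of them, beside 15.9%, 18.5% and 20.1% of all genes. DESeq2 and limma-voom each called 1 (Sdha) for UNX/DOCA ITF2357 against Sham vehicle, beside 6.88% and 8.87% of all genes. The summed level was 2943, 2887, 3174 and 2885 CPM in Sham vehicle, 2707, 2913, 2613 and 2741 CPM for UNX/DOCA vehicle, and 2546, 2441, 2498 and 2851 CPM with UNX/DOCA ITF2357. All drug animals lay below all Sham vehicle animals, and the mean was 0.869 of Sham vehicle. In the other comparisons the sums overlapped, at 0.923 and 0.942 of the mean compared with.

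Sdha, the flavoprotein that oxidises succinate, had the smallest p of all members in UNX/DOCA vehicle against Sham vehicle. It measured 1369, 1284, 1443 and 1295 CPM in Sham vehicle, 1167, 1257, 1139.9 and 1179 CPM for UNX/DOCA vehicle, and 1131, 1069, 1056 and 1245 CPM with UNX/DOCA ITF2357. Both UNX/DOCA groups lay below all Sham vehicle animals. Its fitted log2 fold change was -0.18 ± 0.07 (SE) without the drug, with an adjusted p of 0.212, and -0.26 ± 0.07 with it, with an adjusted p of 0.0604 (edgeR). The interval of the latter ran from -24.4% to -7.83%, and the difference between the UNX/DOCA groups was -0.08 ± 0.07, with an adjusted p of 0.575. Sdhb, the iron-sulphur subunit, measured 747 ± 31.9, 731 ± 37.7 and 669 ± 66.8 CPM (SD, n = 4). The membrane anchors Sdhc and Sdhd measured 473 ± 14.2, 444 ± 25.4 and 418 ± 26.4 CPM and 404 ± 27.6, 382 ± 21.4 and 373 ± 18.2 CPM.

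Complex III, which passes electrons from ubiquinol to cytochrome c, has 8 nuclear members by the rule, and their summed level was 4240.1 ± 189, 4017 ± 174 and 3885 ± 285 CPM (SD, n = 4). Uqcrc1, a core protein on the matrix side, measured 1106, 1088, 1158 and 1054 CPM in Sham vehicle, 1016, 1062, 1004 and 1022 CPM for UNX/DOCA vehicle, and 944, 892, 925 and 1005 CPM with UNX/DOCA ITF2357. The drug group lay below all Sham vehicle animals and overlapped UNX/DOCA vehicle. The log2 fold change of UNX/DOCA ITF2357 against Sham vehicle was -0.23 ± 0.05 (SE), with an adjusted p of 0.0538 in edgeR, 0.000927 in DESeq2 and 0.0184 in limma-voom. The interval ran from -21.2% to -7.27%. Uqcrc2, the other core protein, measured 988 ± 59.8, 929 ± 67.0 and 874 ± 55.5 CPM, and Uqcrfs1, the Rieske iron-sulphur protein, 884 ± 41.5, 823 ± 47.7 and 816 ± 75.3 CPM. The small subunits Uqcrb and Uqcrh measured 284 ± 21.7, 285 ± 13.6 and 288 ± 23.5 CPM and 199 ± 14.7, 197 ± 10.8 and 203 ± 17.7 CPM.

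Complex IV, cytochrome c oxidase, has 18 nuclear members, of which 15 were tested. Their summed level was 5331 ± 184, 5221 ± 194 and 5209.7 ± 496 CPM (SD, n = 4). Cox7a2, a small membrane subunit, had the smallest p of the complex in UNX/DOCA vehicle against Sham vehicle, at 201, 215, 208 and 206 CPM in Sham vehicle, 187, 207, 178 and 189 CPM for UNX/DOCA vehicle, and 182, 174, 175 and 211 CPM with UNX/DOCA ITF2357. The groups overlapped, and the log2 fold change was -0.12 ± 0.07 (SE), with an adjusted p of 0.429 (edgeR). Cox5a, a subunit on the matrix side, measured 290.0 ± 11.5 CPM in Sham vehicle, 276 ± 13.7 CPM for UNX/DOCA vehicle and 253 ± 11.9 CPM with UNX/DOCA ITF2357 (SD, n = 4). All drug animals lay below all Sham vehicle animals, with an adjusted p of 0.0995 (edgeR).

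Several complex IV subunits exist in a form found in most tissues and a form of heart and skeletal muscle. Cox6a1, the common form, measured 49.2, 48.0, 38.7 and 48.1 CPM in Sham vehicle, 47.3, 46.0, 43.5 and 45.8 CPM for UNX/DOCA vehicle, and 36.3, 39.6, 39.5 and 39.9 CPM with UNX/DOCA ITF2357. The drug group lay below all UNX/DOCA vehicle animals, and Sham vehicle replicate 3 lay among the drug animals. Its log2 fold change was -0.23 ± 0.08 (SE) against UNX/DOCA vehicle, with an adjusted p of 0.151 (edgeR), and -0.25 ± 0.08 against Sham vehicle, with an adjusted p of 0.117. Without Sham vehicle replicate 3 the latter adjusted p was 0.0399. Cox6a2, the muscle form, measured 804 ± 49.5, 822 ± 52.4 and 846 ± 93.2 CPM (SD, n = 4), with 1212 CPM per kb on average against 76.2 for Cox6a1. The ratio of Cox6a2 to Cox6a1 per kb was 14.9 ± 2.71 in Sham vehicle, 15.1 ± 1.39 for UNX/DOCA vehicle and 18.3 ± 1.79 with UNX/DOCA ITF2357, and the lowest drug animal (16.9) lay above the highest UNX/DOCA vehicle animal (16.6). Against Sham vehicle the ratios overlapped, since Sham vehicle replicate 3 stood at 18.95, above 3 of the 4 drug animals.

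For the Cox7a pair the common form Cox7a2 was the more abundant. The ratio of Cox7a2 to Cox7a1, the muscle form, per kb was 4.83 ± 0.498 in Sham vehicle, 4.58 ± 0.343 for UNX/DOCA vehicle and 3.87 ± 0.349 with UNX/DOCA ITF2357 (SD, n = 4), and the drug animals (3.39 to 4.17) did not overlap Sham vehicle (4.30 to 5.29) or UNX/DOCA vehicle (4.28 to 4.96). Cox7a1 itself measured 22.9, 28.5, 28.9 and 23.2 CPM in Sham vehicle, 22.4, 25.9, 24.9 and 26.3 CPM for UNX/DOCA vehicle, and 32.0, 24.9, 25.5 and 32.7 CPM with UNX/DOCA ITF2357, which overlapped. Cox7a2l, a related protein of supercomplexes, measured 131 ± 7.40, 132 ± 4.79 and 137 ± 3.89 CPM. Cox8b, the muscle form, stood above Cox8a by a ratio per kb of 6.01 ± 0.677, 5.78 ± 0.245 and 6.31 ± 0.503, and these groups overlapped. Cox4i1 exceeded Cox4i2, a form known from lung, by 203 ± 23.2, 211 ± 51.0 and 174 ± 24.05 times per kb. Cox6b1 measured 565 ± 18.5, 560.4 ± 18.5 and 553 ± 53.6 CPM, and Cox7b 444 ± 15.1, 440.2 ± 23.7 and 439 ± 53.8 CPM.

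The 3 untested complex IV genes are forms known from testis or with little expression elsewhere, and they had few counts. Cox6b2 had 7, 5, 4 and 3 counts in Sham vehicle, 5, 9, 5 and 4 counts for UNX/DOCA vehicle, and 19, 12, 17 and 10 counts with UNX/DOCA ITF2357. All drug animals lay above all other animals, and the mean level was 0.510 ± 0.152 CPM with the drug and 0.203 ± 0.0643 CPM in UNX/DOCA vehicle (SD, n = 4), which is 2.51 times. In a fit with no filter on low counts its adjusted p was 0.218 against UNX/DOCA vehicle and 0.0947 against Sham vehicle (edgeR). Cox7b2 had 1 to 11 counts per library, and Cox8c had 2 counts in 1 Sham vehicle library and 0 in the other 11. The second Ensembl gene with the symbol Atp5o had 0 counts in all 12 libraries.

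Complex V, the ATP synthase, has 18 nuclear members, of which 17 were tested, and held the largest nuclear sum. It was 13122 ± 603, 12380.5 ± 460.5 and 11948 ± 753 CPM (SD, n = 4), and the groups overlapped. Atp5a1, the alpha subunit of the catalytic head, was the most abundant nuclear member. It measured 4813, 4517, 5133 and 4535 CPM in Sham vehicle, 4202, 4588, 4552 and 4273 CPM for UNX/DOCA vehicle, and 4019.9, 3864, 3939 and 4351 CPM with UNX/DOCA ITF2357. The drug group lay below all Sham vehicle animals, while the UNX/DOCA vehicle animals overlapped both other groups. Its fitted log2 fold change was -0.11 ± 0.06 (SE) for UNX/DOCA vehicle against Sham vehicle, with an adjusted p of 0.400, and -0.23 ± 0.06 for UNX/DOCA ITF2357 against Sham vehicle, with an adjusted p of 0.0666 (edgeR). Atp5b, the beta subunit, measured 1630.5 ± 86.0, 1501 ± 77.4 and 1507 ± 129 CPM, and Atp5d, in the central stalk, 446 ± 17.6, 419 ± 17.02 and 392 ± 26.8 CPM.

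Subunit c, which forms the rotating ring, is made as the same protein from 3 genes. Atp5g3 measured 1067 ± 51.3, 1029.7 ± 41.1 and 1012 ± 53.1 CPM, Atp5g1 901 ± 34.6, 856 ± 26.9 and 847 ± 41.7 CPM and Atp5g2 166 ± 7.69, 164 ± 4.20 and 162 ± 9.42 CPM (SD, n = 4). The ratio of Atp5g3 to Atp5g1 per kb was 7.73 ± 0.365, 7.84 ± 0.139 and 7.79 ± 0.0641. The transcript lengths used were 723 bases for Atp5g3 and 4715 for Atp5g1, whose coding region has 408. The size of this ratio therefore rests on the transcript chosen, and it does not show that Atp5g3 is that much more expressed. Atp5g2 shares 85.2% of its 150-base windows with an annotated pseudogene that had 0 counts.

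**Figure D4:**
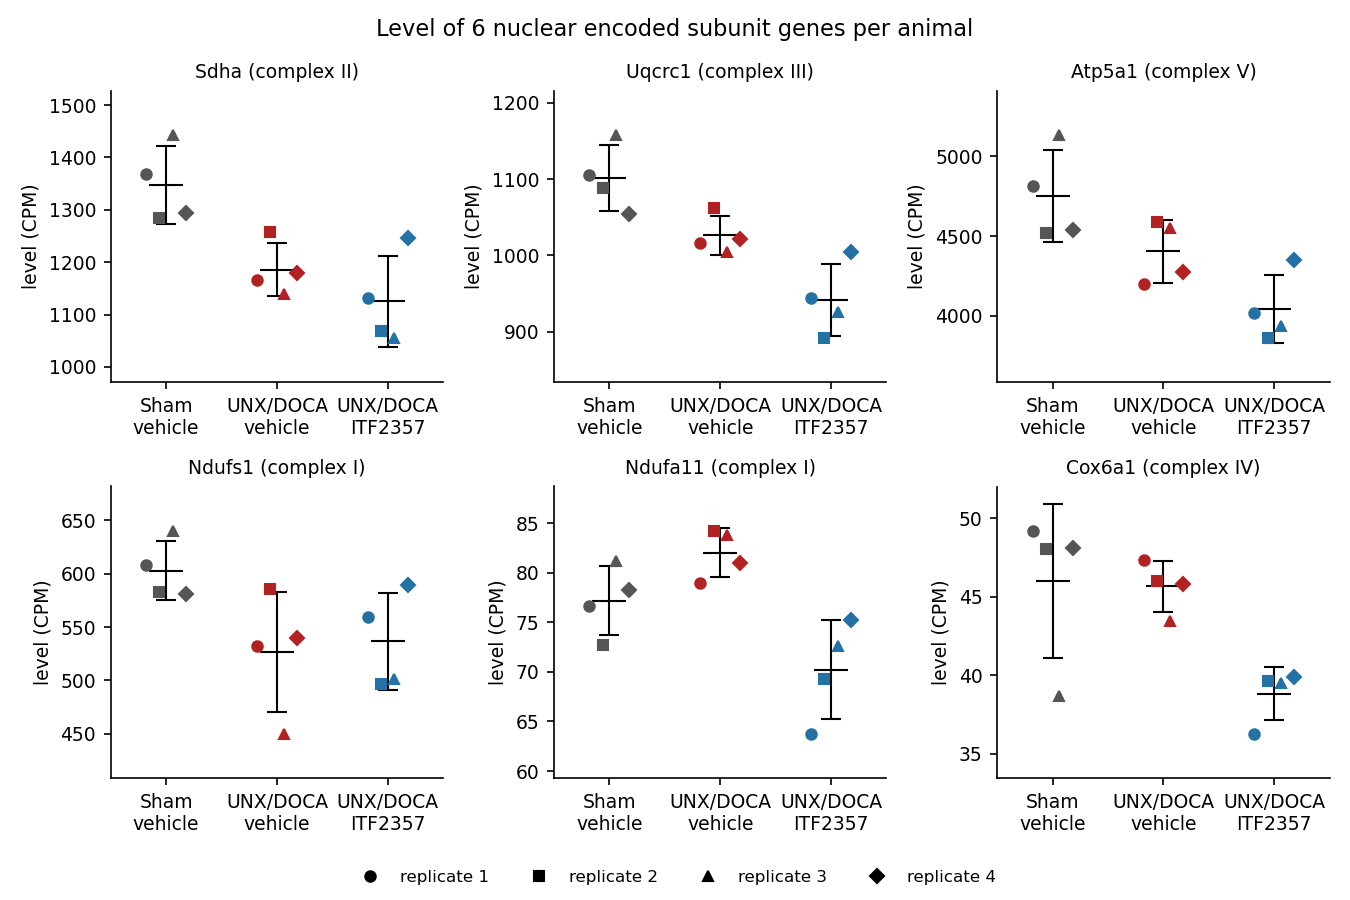
Level of 6 nuclear encoded members in each animal (CPM; the axes do not start at 0); bars are mean and SD over 4 animals and marker shapes are replicate numbers. Sdha in both UNX/DOCA groups lies below all Sham vehicle animals, and Ndufa11 and Cox6a1 in UNX/DOCA ITF2357 lie below all UNX/DOCA vehicle animals.

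Abundant nuclear members had lower fold changes than scarce ones in all 3 comparisons. Spearman's rho between mean CPM and log2 fold change over the 81 tested nuclear members was -0.512, -0.45 and -0.565, and over all 15958 tested genes with a length it was -0.118, -0.0627 and -0.178, given as a description across genes that share libraries. Among the 20 members of highest mean level 19, 13 and 16 were below 0, with medians of -0.07, -0.02 and -0.10. Among the 20 of lowest level 11, 3 and 6 were below 0, with medians of -0.01, 0.07 and 0.05. With exon length, the bases covered by any annotated exon of a gene, rho was -0.377, -0.176 and -0.302 over the members. Over all genes it was -0.17, -0.0015 and -0.15, and the part of length in these values was not tested.

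**Figure D5:**
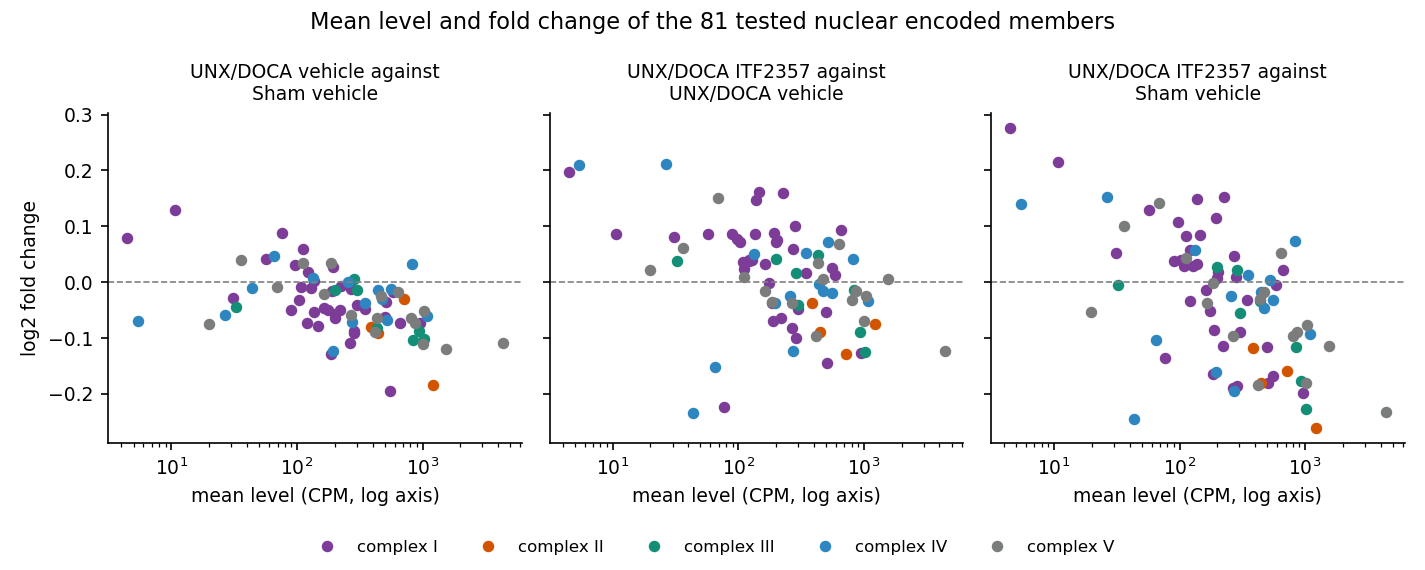
Mean level over 12 libraries (CPM, log axis) against fitted log2 fold change for the 81 tested nuclear members, coloured by complex. Points slope downwards in each panel, with rho of -0.512, -0.45 and -0.565 from left to right.

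Other genes of respiration were counted in 14 lists with 211 tested genes: electron carriers, assembly factors of each complex, ubiquinone synthesis, transcription and replication of mitochondrial DNA, nuclear regulators, the tricarboxylic acid cycle, nucleotide carriers and mitochondrial creatine kinases, mitochondrial ribosomal proteins and related genes. Atp5s stands among the related genes and is also a complex V member by its symbol, so it is counted in both. In UNX/DOCA vehicle against Sham vehicle 0 of 211 passed the test in edgeR, DESeq2 and limma-voom. In edgeR 18 had an unadjusted p under 0.05, 6 higher and 12 lower, beside 15.9% of all genes (6.47% lower). In UNX/DOCA ITF2357 against UNX/DOCA vehicle 2 of 211 passed in edgeR, 1 in each direction, beside 0.901% of all genes, with 4 in DESeq2 and 2 in limma-voom, beside 5.45% and 1.48% of all genes. Against Sham vehicle 2 passed in edgeR, 1 in each direction, beside 1.75% of all genes, with 19 in DESeq2 (3 higher and 16 lower) and 18 in limma-voom (3 higher and 15 lower). These are 9.005% and 8.53% of 211, beside 6.88% of all genes in DESeq2 (3.4% lower) and 8.87% in limma-voom (4.25% lower). An unadjusted p under 0.05 (edgeR) was found for 27 of 211 with the drug against UNX/DOCA vehicle. Of these 10 were higher and 17 lower, beside 8.7% and 9.8% of all genes. With the drug against Sham vehicle it was found for 47, 10 higher and 37 lower, beside 10.7% and 9.39%.

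Cox17, the copper chaperone of complex IV, rose with the drug and was the 1 gene called by edgeR among 23 tested assembly factors of that complex. For UNX/DOCA ITF2357 against Sham vehicle DESeq2 also called Cox10 and limma-voom also called Coa5, both chosen after their values were seen. It measured 81.1, 75.0, 82.1 and 76.4 CPM in Sham vehicle, 76.9, 86.8, 83.8 and 84.7 CPM for UNX/DOCA vehicle, and 112, 103, 99.4 and 113 CPM with UNX/DOCA ITF2357. All drug animals lay above all others. Its log2 fold change was 0.36 ± 0.07 (SE) against UNX/DOCA vehicle, with an adjusted p of 0.0346, and 0.44 ± 0.07 against Sham vehicle, with an adjusted p of 0.0133 (edgeR). With 1 library left out at a time the call against UNX/DOCA vehicle held in 4 of 12 fits (adjusted p 0.0341 to 0.0999; lost without Sham vehicle 1, 2 or 4, UNX/DOCA vehicle 3 or 4, or UNX/DOCA ITF2357 1, 3 or 4), and that against Sham vehicle in 9 of 12 (0.00917 to 0.0688; lost without Sham vehicle 1, 2 or 4). Without UNX/DOCA vehicle replicates 3 and 4 the log2 fold changes were 0.38 and 0.43, with adjusted p-values of 0.138 and 0.0137. The call against UNX/DOCA vehicle was also lost with the replicate number as a block (adjusted p 0.0704, edgeR) and in the fit of only the 2 groups (0.132). The 15 tested nuclear subunits of complex IV had a median of -0.02 in each of these comparisons.

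Pprc1, a coactivator related to Ppargc1a, was the 1 gene of 11 nuclear regulators called by edgeR and fell with the drug. It measured 16.1, 17.1, 14.8 and 19.6 CPM in Sham vehicle, 17.98, 19.2, 27.6 and 23.3 CPM for UNX/DOCA vehicle, and 14.8, 14.0, 12.9 and 13.9 CPM with UNX/DOCA ITF2357. UNX/DOCA vehicle replicates 3 and 4, which had the high neutrophil markers, were the highest. They also had the highest macrophage marker sums, 518 and 360 CPM against 168 to 289 CPM in the other 10 libraries, and replicate 3 had the highest fibroblast marker sum, 1379 CPM. The log2 fold change against UNX/DOCA vehicle was -0.66 ± 0.13 (SE), with an adjusted p of 0.0400 (edgeR). Without those 2 libraries it was -0.43, with an adjusted p of 0.254, and the part of these cell type markers in the result was not tested. With 1 library left out at a time the call held in 2 of 12 fits, those without UNX/DOCA vehicle replicate 1 or 2 (adjusted p 0.0226 to 0.1199). It was also lost with the replicate number as a block (adjusted p 0.0713, edgeR), in the fit of only the 2 groups (0.132) and with library totals (0.0518). Ppargc1a, which coactivates NRF1 and oestrogen-related receptors and was chosen after its values were seen, measured 70.4, 396, 132 and 437 CPM in UNX/DOCA vehicle and 83.3 to 120 CPM in Sham vehicle, with an adjusted p of 0.229 (edgeR). Levels of Ppargc1a in the drug group are not listed here. In UNX/DOCA ITF2357 against Sham vehicle its adjusted p was 0.155 (edgeR), the smallest among the 11 regulators.

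Cs, citrate synthase, was the 1 gene of 14 in the tricarboxylic acid cycle called by edgeR and fell against Sham vehicle. In that comparison other genes of the list were called by DESeq2 and limma-voom, among them Dlst and Mdh2 by both, chosen after their values were seen. It measured 1248, 1257, 1334 and 1246 CPM in Sham vehicle, 1166, 1195, 1232 and 1154 CPM for UNX/DOCA vehicle, and 961, 1018, 1060 and 1011 CPM with UNX/DOCA ITF2357. The 3 groups did not overlap. The log2 fold change of UNX/DOCA ITF2357 was -0.33 ± 0.05 (SE) against Sham vehicle, with an adjusted p of 0.0153, and -0.23 ± 0.05 against UNX/DOCA vehicle, with an adjusted p of 0.0581 (edgeR). The call against Sham vehicle held in 9 of 12 fits with 1 library left out (adjusted p 0.00917 to 0.0586) and was lost without Sham vehicle 1, 2 or 4. Of the 14 genes 13 had a log2 fold change below 0 against Sham vehicle with the drug (median -0.18), beside 47.7% of all genes (median 0.01). In that comparison 9 of the 14 had an unadjusted p under 0.05 (edgeR), all lower, beside 9.39% of all genes. Among 77 mitochondrial ribosomal protein genes the medians were -0.02, -0.01 and -0.06 in the 3 comparisons, and 3, 5 and 13 genes had an unadjusted p under 0.05 (edgeR), beside 15.9%, 18.5% and 20.1% of all genes.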

How the data were processed

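Left ventricle poly(A) RNA of 12 mice was sequenced as paired reads of 150 bases with a directional kit, per the labels' protocols. The deposited table holds raw counts per gene made by the authors. FastQC 0.11.9, STAR 2.7.10b and the mm39 build are named in the submitters' processing notes. Not given in the sources used here: the counting tool, its strand setting, its annotation and the handling of reads that fit several places. Whether the counting kept apart reads of genes on opposite strands is therefore not known. Samples were grouped by their titles.

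Symbols were matched by Ensembl ID to GENCODE M21 (GRCm38), and 99.2% or more of each library's counts fell on genes with a symbol. Promoters are from RefSeq on GRCm38.p6, and copies were searched in the M21 transcripts, with BLAST+ 2.17.0 for near matches. Genes were filtered with filterByExpr (minimum count 10), scaled by TMM and fitted in edgeR 4.0.16 (R 4.3.3) by robust quasi-likelihood over all 12 libraries, with 9 residual degrees of freedom. The common biological coefficient of variation was 0.187. P-values were adjusted by Benjamini-Hochberg over 16981 genes, with 0.05 as the threshold. Each standard error is the size of the log2 fold change over the root of its F statistic, and intervals are at 95%. Alternatives were DESeq2 1.42.0, limma-voom (limma 3.58.1) with sample weights, 4 other scalings, 2 other filters, fits of the 2 groups compared, a replicate block and leaving out each library. The script was tested on simulated data.

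The members and lists were chosen with earlier results of these data known. Named by rule were the mitochondrial members, the isoform sets, the member of smallest p per complex in UNX/DOCA vehicle against Sham vehicle, and members or listed genes past the threshold. Other members were named after their values were seen. Animals differ between replicates, and totals of 23.4 to 34.9 M counts set the counting precision. The separate result of 1 member was left out, and the counts and medians include it.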

Additional observations from a re-analysis of the deposited data

Results flagged for a closer look

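In each group of 4 animals the highest and the lowest value were compared with the nearest of the others, and a value was singled out where that gap, as a share of the group's range, passed Dixon's critical value at 95%. This held for 9 of 132 checks, and chance alone gives about 1 in 20.

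For mt-Nd2 UNX/DOCA vehicle replicate 2 had 22258.8 CPM and the other 3 animals had 20472.3 to 20686.2 CPM. For mt-Nd4 the same animal had 20914.9 CPM against 16966.9 to 17386.4 CPM. Cox6a1 was low in Sham vehicle replicate 3, at 38.653 CPM against 48.0241 to 49.1929 CPM, and in UNX/DOCA ITF2357 replicate 1, at 36.2704 CPM against 39.5083 to 39.8528 CPM. Cox6a2 was high in UNX/DOCA ITF2357 replicate 4, at 985.798 CPM against 797.747 to 802.166 CPM. Cox6b1 was high in that animal too, at 633.005 CPM against 518.296 to 531.671 CPM, and low in UNX/DOCA vehicle replicate 1, at 532.982 CPM against 566.58 to 572.874 CPM. The nuclear sum of Sham vehicle replicate 3 was 36877.8 CPM against 33655.6 to 34143.6 CPM, and its nuclear complex V sum was 14016.0 CPM against 12735.0 to 12947.4 CPM. As a share of its counts, however, the nuclear members took 3.46% in that animal, within the Sham vehicle range of 3.33% to 3.50%. Its TMM factor (0.940) and that of UNX/DOCA ITF2357 replicate 4 (0.949) were the lowest of all libraries, and the part of scaling in these flags was not tested.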

How the results depend on the processing

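For UNX/DOCA vehicle against Sham vehicle 0 members were called under every alternative run. For UNX/DOCA ITF2357 against UNX/DOCA vehicle DESeq2 called 1 (Ndufa11), beside 5.45% of all genes, and all other alternatives 0. For UNX/DOCA ITF2357 against Sham vehicle DESeq2 called 10, limma-voom 8, library totals 4 and the filter at 1 CPM 1, and the other scalings, no filter and the fit of 2 groups called 0. DESeq2 called 6.88% of all genes there and limma-voom 8.87%. Leaving out each library gave 0 to 3, with 1 (Cox6a1) without Sham vehicle replicate 3 and 3 (Sdha and Uqcrc1 lower, Cox6b2 higher) without UNX/DOCA vehicle replicate 3. The share of all genes called is not given here for the other settings, so their counts do not show whether the members differ from other genes. Without UNX/DOCA vehicle replicate 3 Cox6b2 passed the filter on low counts only through its counts in the drug group, so its call is no support for a difference. The cause was not tested.

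With the replicate number as a block 0, 0 and 0 members were called, with smallest adjusted p-values of 0.252 (Sdha), 0.132 (Ndufa11) and 0.092 (Uqcrc1) in edgeR. The labels do not say that the numbers pair animals. The correlation over 12 pairs of libraries with the same number ran from -0.19 to 0.25, which cannot decide whether animals were paired. Leaving out UNX/DOCA vehicle replicates 3 and 4, chosen after seeing the data, gave 0, 0 and 0.

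As a ratio to the counts of nuclear respiratory chain genes, the fold of UNX/DOCA vehicle over Sham vehicle was 1.01 for nuclear complex I, 0.994 for III, 1.03 for IV and 0.991 for V, and that of UNX/DOCA ITF2357 over Sham vehicle was 1.07 for mitochondrial complex IV and 0.978 for nuclear V. Other summed values moved by less than the spread between animals, 94 of 98, 98 of 98 and 96 of 98 by comparison. Of 94 genes 49, 53 and 60 kept the sign of their fold change in all alternatives, in the order of the comparisons above. Depth limits Cox6b2, Cox7b2 and Cox8c, which had at most 19 counts in a library.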
